A study of Mus musculus with 30 samples.

Results

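Red cell formation was followed through 9 genes: the transcription regulators Gata1, Klf1 and Zfpm1, the erythropoietin receptor gene Epor, the carbonic anhydrase genes Car1 and Car2, and the red cell genes Slc4a1, Alas2 and Ermap.
They were chosen by name, as 9 of the 24063 genes of a bulk RNA-seq table and 9 of the 27933 genes of a 10x single-cell table, and all 9 stood in both.
The study compared blood-forming cells of mice that had lost Mettl3, the catalytic subunit of the complex that writes m6A on messenger RNA, with cells of mice that kept it. The Mettl3KO mice carried Mx1-Cre and both floxed Mettl3 alleles (Mettl3 fl/fl), and the WT mice carried Mettl3 fl/fl without Cre.
Mice of both genotypes had been given pIpC, a synthetic double-stranded RNA whose interferon response switches on Mx1-Cre, and cells were taken 3 weeks later.
Mx1-Cre acts in all interferon-responsive cells, so deletion is not limited to blood stem cells, and the WT mice lack Cre itself. Bulk libraries came from 4 marrow populations that were lineage-negative, Sca1-positive and c-Kit-positive, in 3 mice per genotype and population (24 libraries). HSC and MPP2 were sorted as CD150-positive and MPP1 and MPP4 as CD150-negative cells, while MPP2 and MPP4 were CD48-positive and HSC and MPP1 CD48-negative.
The HSC gate contains the long-term stem cells, and MPP stands for multipotent progenitor.
The 10x libraries held Lin-c-Kit+ (LK) cells, a wider compartment with myeloid, megakaryocytic and erythroid progenitors, from 3 Mettl3KO mice and 3 WT mice.

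Red cells arise from multipotent progenitors through erythroid progenitors that depend on erythropoietin, which binds the receptor encoded by Epor.
GATA1 is the master transcription factor of the erythroid and megakaryocytic lineages, and FOG1, the product of Zfpm1, is its cofactor in both.
KLF1 is an erythroid transcription factor that activates globin, heme, membrane and blood group genes.
Carbonic anhydrases I and II (Car1, Car2) interconvert carbon dioxide and bicarbonate, and Car2 is also made in stem cells and other tissues.
Band 3 (Slc4a1) exchanges bicarbonate for chloride across the red cell membrane, ALAS2 starts erythroid heme synthesis, and ERMAP is a red cell membrane protein that carries the Scianna blood group in humans.

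RefSeq promoter sequences (GRCm38.p6, 250 bases before to 50 bases after the gene start) were matched for 6 of the 9 genes, Gata1, Klf1, Zfpm1, Epor, Alas2 and Ermap.
They are shown because 8 of the genes moved one way and Zfpm1 the other in the LK comparison below, and GATA1 and KLF1 are regulators within the set.
Capitals mark matches to the GATA motif, searched as AGATAA or AGATAG and also as TGATAA or TGATAG on both strands, so TTATCA and TTATCT are matches on the opposite strand.
Klf1 (chr8:84901732-84902031, plus strand) and Ermap (chr4:119189946-119190245, minus strand) each held 1 match, at -80 and -67 from the start.
Epor (chr9:21963527-21963826, minus strand) held 1 match at -54, and Alas2 (chrX:150547167-150547466, plus strand, not printed) 1 at -86.
The windows of Zfpm1 (chr8:122281891-122282190, plus strand) and Gata1 (chrX:7967861-7968160, minus strand, not printed) held none of these letters. The Gata1 window lies inside the GENCODE span of the gene given below (7959260 to 7978071), so the outer start of that span was not searched.
Klf1: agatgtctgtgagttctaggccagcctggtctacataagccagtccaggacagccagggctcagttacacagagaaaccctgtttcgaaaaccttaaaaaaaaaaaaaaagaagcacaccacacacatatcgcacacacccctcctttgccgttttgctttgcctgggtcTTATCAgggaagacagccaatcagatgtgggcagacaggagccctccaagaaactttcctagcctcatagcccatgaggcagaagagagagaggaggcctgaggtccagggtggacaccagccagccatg
Ermap: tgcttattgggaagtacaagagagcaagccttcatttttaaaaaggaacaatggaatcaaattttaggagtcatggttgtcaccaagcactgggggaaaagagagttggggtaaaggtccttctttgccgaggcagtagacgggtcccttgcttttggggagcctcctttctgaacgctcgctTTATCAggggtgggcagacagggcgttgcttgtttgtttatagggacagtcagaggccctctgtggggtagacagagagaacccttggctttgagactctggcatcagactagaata
Epor: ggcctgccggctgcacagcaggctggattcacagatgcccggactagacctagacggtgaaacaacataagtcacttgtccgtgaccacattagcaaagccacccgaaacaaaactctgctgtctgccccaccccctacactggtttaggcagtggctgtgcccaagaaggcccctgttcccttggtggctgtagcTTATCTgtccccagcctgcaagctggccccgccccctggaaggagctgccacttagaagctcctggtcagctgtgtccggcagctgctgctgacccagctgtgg
Zfpm1: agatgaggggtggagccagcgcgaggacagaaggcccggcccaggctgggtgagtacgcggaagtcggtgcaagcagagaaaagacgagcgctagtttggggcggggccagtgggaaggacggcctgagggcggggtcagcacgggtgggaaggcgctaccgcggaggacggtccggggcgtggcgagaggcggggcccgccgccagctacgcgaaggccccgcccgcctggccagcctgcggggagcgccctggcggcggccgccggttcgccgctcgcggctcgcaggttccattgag
A GATA match stood in 29.8% of 32851 RefSeq mouse promoters of the same length. The KLF-type motif CCNCNCCC, on both strands, was matched 4 times in each of Zfpm1, Epor and Alas2, 3 times in Gata1 and not in Klf1 or Ermap, and stood in 49.5% of all promoters. A match is a string of letters and not a measured binding site. Whether matches relate to the direction of change was not tested, and the Gata1 window, without a GATA match, belongs to a gene that fell in LK cells.

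In the GRCm38 annotation (GENCODE vM21) Gata1 lies on the minus strand of chromosome X at 7959260 to 7978071, with 10 merged exons.
Klf1 (84901928 to 84905291, 3 merged exons) and Zfpm1 (122282141 to 122337251, 11 merged exons) lie on the plus strand of chromosome 8.
Epor lies on the minus strand of chromosome 9 at 21958897 to 21963506, with 8 merged exons.
Car1 (14766216 to 14808368, minus strand) and Car2 (14886273 to 14900770, plus strand) both lie on chromosome 3, with 8 merged exons each.
Slc4a1 lies on the minus strand of chromosome 11 at 102348824 to 102366203, with 25 merged exons.
Alas2 lies on the plus strand of chromosome X at 150547375 to 150570638, and Ermap on the minus strand of chromosome 4 at 119175457 to 119190011.
Alas2 exons overlap exons of Apex2 and Mir3620 over 372 bases, so its bulk reads are uncertain where strand was not used in counting.
Alas2 bulk counts were also even numbers in 23 of 24 libraries.
Car1 shares 50-base stretches with Gm5843, and Ermap with Gm37536.

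Bulk libraries held 28896498 to 55276836 counts, and the 10x libraries kept 24396 of 24693 cells with 28796862 to 44308479 UMIs.
Mettl3 was lower in all 3 Mettl3KO than in all 3 WT libraries of every population, with log2 fold changes of -1.35 in HSC, -1.49 in MPP1, -1.08 in MPP2 and -0.77 in MPP4, and of -0.75 in LK cells.
The sort genes followed the gates: Cd48 was at 174 to 254 CPM in the Mettl3KO and 136 to 225 CPM in the WT libraries of MPP2 and MPP4, and at most 33.5 CPM in HSC and MPP1.
Slamf1, which encodes CD150, reached 62.6 CPM in Mettl3KO HSC and 38.3 CPM in WT HSC, against at most 4.22 CPM in any MPP1 or MPP4 library. Replicate 2 of MPP1 Mettl3KO stood apart, with 67945 CPM in 7 neutrophil markers against 21.7 to 4160 CPM in the other libraries.
Macrophage markers (8 measured) were highest in replicate 1 of WT MPP2, at 6718 CPM.
In the 10x data, 24.5% of the cells of LK WT replicate 3 were neutrophil-like, against 0.308% to 2.16% in the other 5 libraries. Of the 24693 cells before filtering, 607 carried a barcode that also occurred in another library.

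In WT libraries, carbonic anhydrase transcripts were the most abundant of the set when levels were set per kilobase of exon.
In WT HSC, Car2 reached 486 ± 80.5 CPM per kb (SD, n = 3 as for all means below), ahead of Car1 at 47.6 ± 27.9 and Zfpm1 at 26.5 ± 8.81.
Klf1 (8.25 ± 2.17), Gata1 (8.13 ± 1.98) and Epor (6.74 ± 3.68) followed at levels within each other's spread, as did Car1 and Zfpm1.
Ermap stood at 1.08 ± 0.547 CPM per kb, and Slc4a1 and Alas2 were near the detection limit at 0.293 ± 0.284 and 0.171 ± 0.160.
In WT MPP2 the gap between the anhydrases closed, with 295 ± 10.1 CPM per kb for Car2 and 278 ± 61.1 for Car1, and Klf1 (20.7 ± 2.22), Gata1 (18.3 ± 6.01) and Zfpm1 (16.8 ± 2.56) were again within each other's spread.
The Mettl3KO libraries of HSC had another order, with Zfpm1 (55.8 ± 13.2 CPM per kb) and Epor (6.61 ± 2.27) ahead of Car1 (2.04 ± 1.41) and Klf1 (1.82 ± 0.674).

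Car1 was higher in WT MPP2 than in WT HSC, and Car2 was lower in WT MPP4 than in WT HSC and WT MPP1. Car1 stood at 415, 265 and 361 CPM in the 3 WT MPP2 libraries, against 99.3, 44.0 and 34.9 CPM in WT HSC, with no overlap.
The log2 fold change was 2.55 ± 0.62 (SE, edgeR adjusted p = 0.023), 1 of 9 members called where 3.91% of all 15545 tested genes were. This Car1 call held in 7 of 11 alternative settings (adjusted p = 0.0020 to 0.13).
Car2 stood at 472, 543 and 526 CPM in WT MPP4, against 1239, 958 and 1333 CPM in WT HSC (log2 fold change -1.20 ± 0.21, adjusted p = 0.0012) and 1354, 1206 and 1100.2 CPM in WT MPP1 (-1.25 ± 0.21, 0.0018).
It was the 1 member called in each of these comparisons, in which 12.0% and 4.64% of all genes were called. Both Car2 calls held in all 11 alternative settings. Gata1, Klf1, Ermap and Alas2 were also above every WT HSC library in every WT MPP2 library, and Car2 was below. Their log2 fold changes of 1.17, 1.32, 1.64, 3.28 and -0.72 did not pass with edgeR (adjusted p = 0.42, 0.19, 0.25, 0.21 and 0.059). The share of all genes with such a separation was not counted for WT comparisons.
No member was called between WT MPP1 and WT HSC (0.0257% of genes called), WT MPP2 and WT MPP1 (2.01%) or WT MPP2 and WT MPP4 (0.0901%).
At an unadjusted p under 0.05 those comparisons held 2, 2 and 6 members, and DESeq2 called 0, 1 (Car2) and 1 (Epor).
WT libraries of the populations share WT HSC, WT MPP1 or WT MPP2 between these comparisons, so they are not independent.

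**Figure D1:**
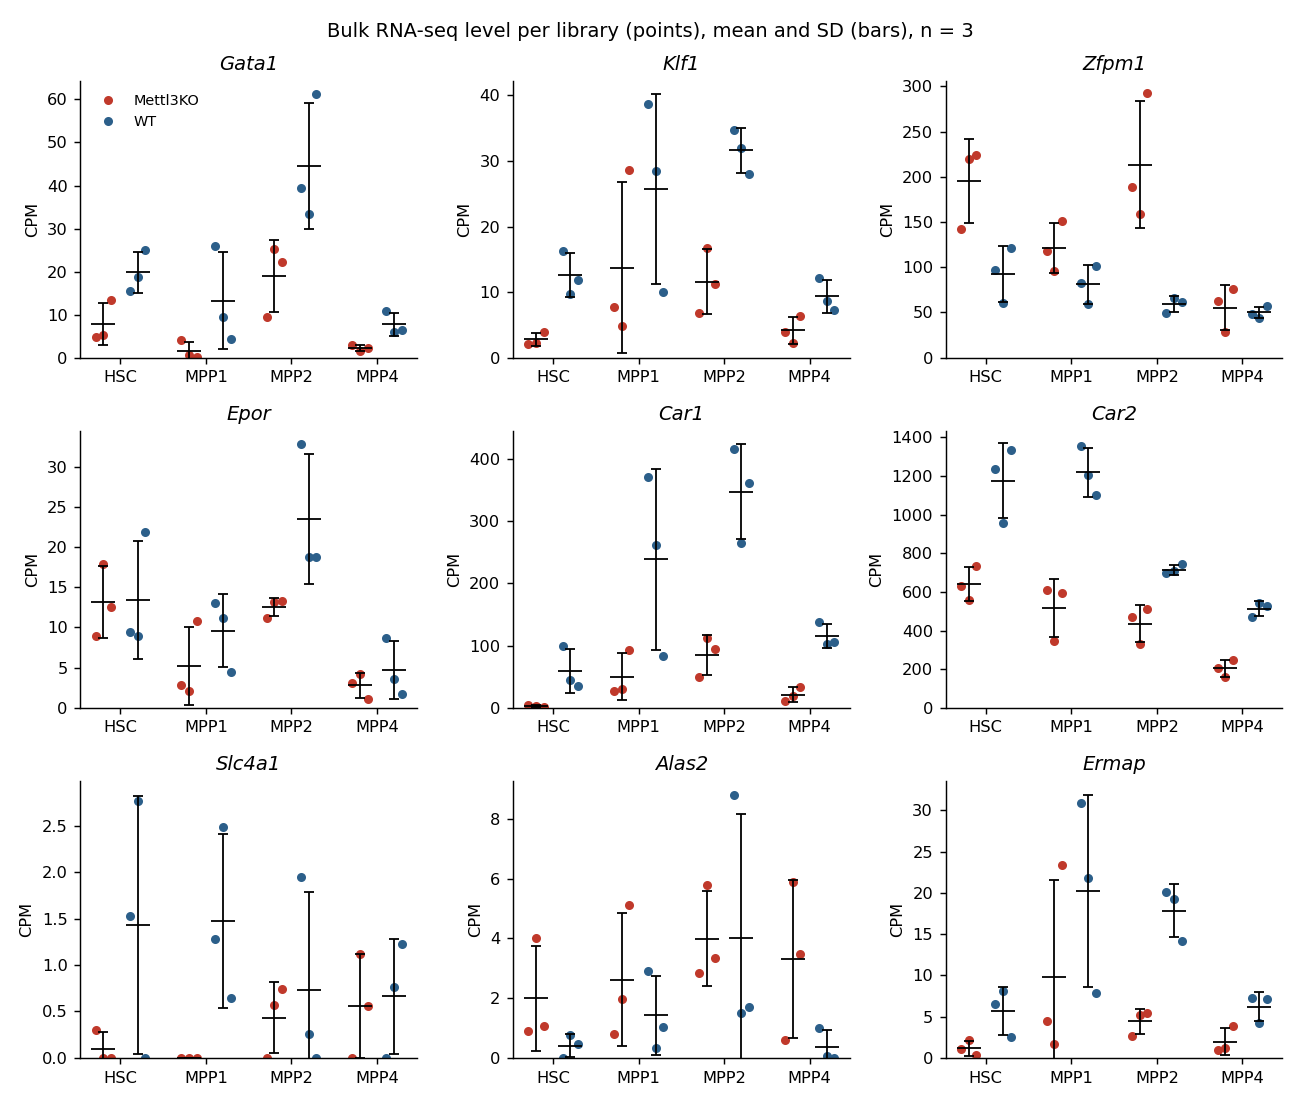
Level of each member in CPM (TMM-scaled) in the sorted populations, with 3 Mettl3KO libraries (red) left of 3 WT libraries (blue) in each, and the mean with its SD. Car2 and Gata1 lay lower in every Mettl3KO library than in every WT library of the same population, and Zfpm1 lay higher in HSC and MPP2.

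The carbonic anhydrase genes carried most of the calls in the bulk comparison of the genotypes.
Car1 fell in HSC, MPP1 and MPP4 and Car2 fell in the same populations, Klf1 fell in HSC and Gata1 in MPP1, and Zfpm1 rose in MPP2.
The members called were 3 of 9 in HSC (6.15% of all genes called), 3 of 9 in MPP1 (8.63%), 1 of 9 in MPP2 (2.47%) and 2 of 9 in MPP4 (3.13%).
The members' median log2 fold change was -1.34 in HSC, -1.04 in MPP1, -0.90 in MPP2 and -1.17 in MPP4, against medians over all genes of 0.00, 0.01, -0.02 and -0.01.
In these bulk samples, fewer cells of a type and less RNA per cell cannot be told apart.
The 4 comparisons use different libraries, but the labels do not say whether populations came from the same mice.

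Car1, a gene of early erythroid progenitors, showed the largest fall among the called members in HSC. It stood at 4.34, 2.46 and 0.832 CPM in Mettl3KO HSC, against 99.3, 44.0 and 34.9 CPM in WT HSC.
The highest Mettl3KO library was below the lowest WT library, and the log2 fold change was -4.52 ± 0.69 (adjusted p = 4.0e-04).
This call held in all 11 alternative settings, with log2 fold changes of -5.18 to -3.92.
In MPP1, Car1 stood at 26.6, 29.6 and 93.0 CPM in Mettl3KO libraries, against 371, 261 and 82.6 CPM in WT libraries.
Mettl3KO replicate 3 lay above WT replicate 3, so the groups overlapped, and the log2 fold change was -2.26 ± 0.61 (0.027).
In MPP2 it was at 49.0, 112 and 93.9 CPM in Mettl3KO libraries, against 415, 265 and 361 CPM in WT libraries, and in MPP4 at 10.6, 19.1 and 33.7 CPM, against 137, 102 and 106 CPM.
Neither pair of groups overlapped, and the MPP4 change passed with edgeR (log2 fold change -2.44 ± 0.62, 0.033), while the MPP2 change of -2.03 ± 0.61 did not (0.081).
The MPP2 change passed with DESeq2 (0.026) and with edgeR on the MPP2 libraries alone (0.024).
The MPP4 call was lost without any 1 of its 6 libraries (adjusted p = 0.059 to 0.13).
The MPP1 call was lost without Mettl3KO replicates 1 (0.084) or 2 (0.068), of which replicate 2 is the library with the neutrophil markers, or WT replicates 1 (0.12) or 2 (0.066).

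Car2 lay lower in Mettl3KO than in WT libraries in all 4 populations without overlap.
Its levels were 628, 560.4 and 735 CPM in Mettl3KO HSC, against 1239, 958 and 1333 CPM in WT HSC (log2 fold change -0.88 ± 0.21, adjusted p = 0.015).
In MPP1 they were 612, 346 and 594 CPM in Mettl3KO libraries, against 1354, 1206 and 1100.2 CPM in WT libraries (-1.24 ± 0.21, 0.0015).
In MPP4 they were 204, 159 and 249 CPM in Mettl3KO libraries, against 472, 543 and 526 CPM in WT libraries (-1.33 ± 0.21, 0.0015).
The smallest difference was in MPP2, with 468, 328 and 509 CPM in Mettl3KO libraries, against 695, 706 and 742 CPM in WT libraries (-0.72 ± 0.21, 0.078), which did not pass with edgeR.
It passed with DESeq2 (0.018) and with the replicate number as a block (-0.74, 0.030).
The HSC call was lost without Mettl3KO replicate 2 (0.096), WT replicate 1 (0.063) or WT replicate 3 (0.077).

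Among the transcription regulators, Gata1 and Klf1 were lower and Zfpm1 was higher.
Gata1 was at 4.05, 0.710 and 0.0704 CPM in Mettl3KO MPP1, against 25.9, 9.56 and 4.32 CPM in WT MPP1 (log2 fold change -3.03 ± 0.84, adjusted p = 0.029).
Each Mettl3KO library was below each WT library, although replicate 3 held 3 counts only. The call was lost without Mettl3KO replicates 2 (0.068) or 3 (0.055) or WT replicate 1 (0.15).
Gata1 was likewise below every WT library in Mettl3KO HSC (7.85 ± 4.81 against 19.8 ± 4.83 CPM), MPP2 (19.0 ± 8.28 against 44.6 ± 14.7 CPM) and MPP4 (2.25 ± 0.652 against 7.75 ± 2.68 CPM), and none of these passed (adjusted p = 0.35, 0.47 and 0.27).
Such a separation in all 4 populations, which Gata1 and Car2 showed, was found for 1.39% of the tested genes.
Counted by population, 5, 3, 6 and 5 of the 9 members lay lower in every Mettl3KO than in every WT library in HSC, MPP1, MPP2 and MPP4, against 12.0%, 12.2%, 13.6% and 14.4% of all genes. Higher in every Mettl3KO library were Zfpm1 and Alas2 in HSC, against 12.1% of all genes, and Zfpm1 in MPP2.

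Klf1 was at 2.08, 2.31 and 3.97 CPM in Mettl3KO HSC, against 16.2, 9.70 and 11.9 CPM in WT HSC.
The groups stood apart, with a log2 fold change of -2.18 ± 0.58 (adjusted p = 0.028).
This call was lost without any 1 of 5 of the 6 HSC libraries (0.053 to 0.124), and held without WT replicate 2.
Klf1 was also without overlap in MPP2 (11.6 ± 4.93 CPM in Mettl3KO against 31.6 ± 3.40 CPM in WT, log2 fold change -1.45 ± 0.56, 0.19) and MPP4 (4.15 ± 2.07 against 9.37 ± 2.52 CPM, -1.17 ± 0.56, 0.31).
In MPP1 the groups overlapped, at 7.65, 4.90 and 28.7 CPM in Mettl3KO libraries, against 38.6, 28.5 and 10.1 CPM in WT libraries.
Without Mettl3KO replicate 3 the MPP1 change passed (-2.04, 0.032).

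Zfpm1, the cofactor gene, went the other way.
It was at 189, 158 and 293 CPM in Mettl3KO MPP2, against 48.8, 65.9 and 62.1 CPM in WT MPP2, with every Mettl3KO library above every WT library (log2 fold change 1.86 ± 0.33, adjusted p = 0.0050).
This was the 1 member higher in a population where 1.51% of all genes were called higher, and the call held without any 1 library.
In HSC it was at 142, 220.0 and 224 CPM in Mettl3KO libraries, against 97.1, 60.0 and 121 CPM in WT libraries (1.08 ± 0.33, 0.056).
The HSC groups did not overlap, and the change passed with DESeq2 and without Mettl3KO replicate 1 (1.26, 0.032).
In MPP1 and MPP4 the genotypes overlapped, with log2 fold changes of 0.58 ± 0.33 (0.27) and 0.15 ± 0.32 (0.90).

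The receptor and the red cell genes gave no bulk call with edgeR, while DESeq2 called Ermap in HSC (adjusted p = 0.030) and Slc4a1 in MPP1 (0.016), both lower.
Epor was at 11.2, 13.2 and 13.3 CPM in Mettl3KO MPP2, against 32.8, 18.8 and 18.8 CPM in WT MPP2 (log2 fold change -0.90 ± 0.63, adjusted p = 0.53), and overlapped in the other populations.
The highest of these, WT replicate 1, is the library with the most macrophage markers, and it also held the highest Alas2 (8.80 CPM) and Slc4a1 (1.95 CPM) of MPP2. The part of those cells in these values was not tested.
Ermap lay lower without overlap in HSC (1.19 ± 0.913 CPM in Mettl3KO against 5.72 ± 2.90 CPM in WT), MPP2 (4.45 ± 1.54 against 17.8 ± 3.23 CPM) and MPP4 (1.98 ± 1.60 against 6.22 ± 1.75 CPM), with adjusted p = 0.11, 0.21 and 0.32.
Slc4a1 held no count in the 3 Mettl3KO MPP1 libraries, against 39, 102 and 27 counts in the WT libraries. It was at least 55.5-fold lower when the Mettl3KO group is set at 3 counts in all, with an adjusted p of 0.090.
That floor covers counting error only. In the other populations Slc4a1 was at or below 1.12 CPM in Mettl3KO and 2.77 CPM in WT libraries, and the groups overlapped. It also held no count in WT replicate 3 of HSC and of MPP2 and in WT replicate 1 of MPP4.
Alas2 was at 0.912, 4.02 and 1.05 CPM in Mettl3KO HSC, against 0, 0.761 and 0.473 CPM in WT HSC, the highest WT library lying below the lowest Mettl3KO library (log2 fold change 2.27 ± 1.40, 0.38). The markers of erythroid cells as a whole (19 genes, none at 0) summed to 260.3 to 344 CPM in Mettl3KO HSC and 234 to 377 CPM in WT HSC, and overlapped in MPP1 and MPP4 too.
In MPP2 they summed to 459.7 to 503 CPM in Mettl3KO and 513 to 795 CPM in WT libraries, without overlap. Their part in the members' values was not tested.

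**Figure D2:**
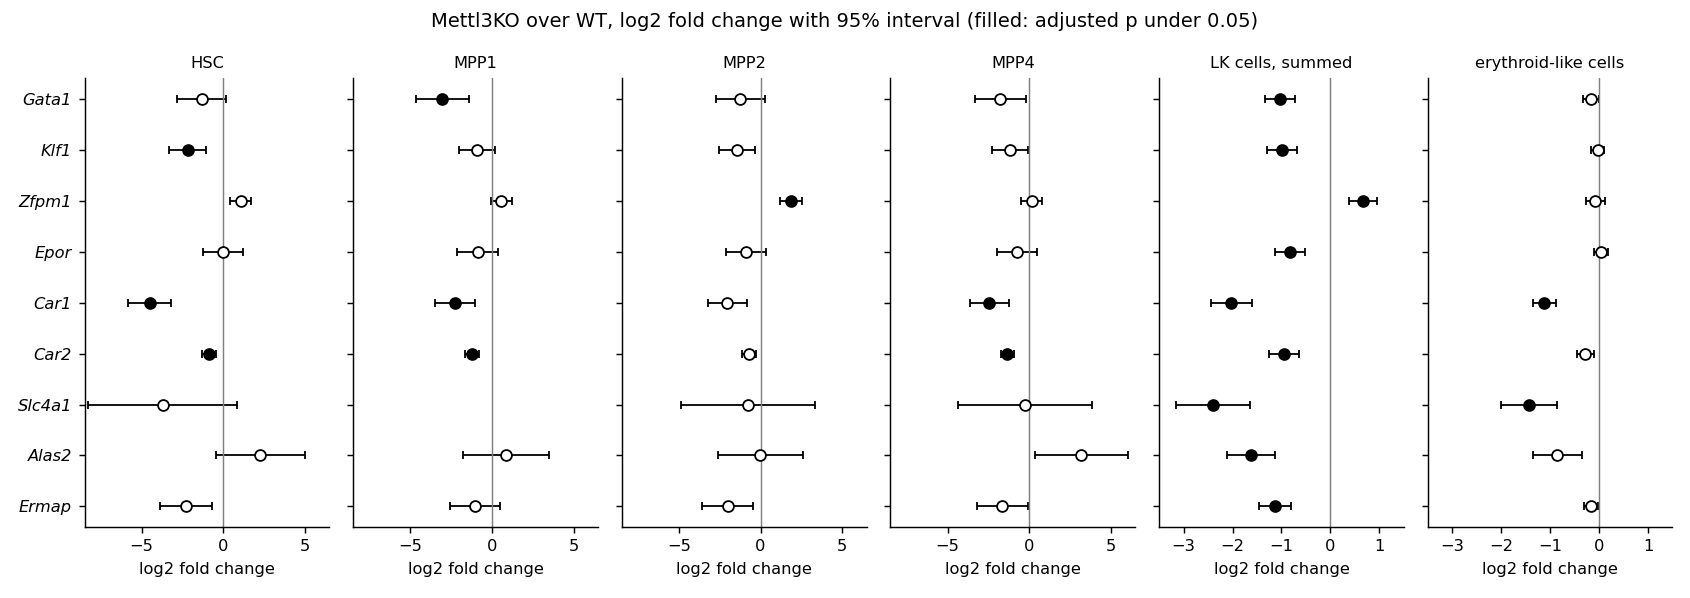
Log2 fold change of Mettl3KO over WT for each member with its 95% interval, in the 4 bulk populations and in the summed 10x cells, on x axes of different range. Filled points passed an adjusted p of 0.05, and Slc4a1 in MPP1 is left out because its Mettl3KO libraries held no count. The Car1 intervals lie left of 0 in every panel, and the Zfpm1 intervals lie right of 0 in HSC, MPP2 and LK cells.

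The size of the effect differed between populations for no member after adjustment.
The tests of the difference between HSC and each MPP population called 0 of 9 members with edgeR and 0 with DESeq2, where 0.0386% (MPP1), 0.00643% (MPP2) and 1.55% (MPP4) of all genes were called.
Car1 was the 1 member with an unadjusted p under 0.05 in each.
Its log2 fold change was less negative than in HSC by 2.26 ± 0.85 in MPP1, 2.49 ± 0.85 in MPP2 and 2.08 ± 0.85 in MPP4, with adjusted p = 0.41, 1 and 0.23.
For Zfpm1 the MPP4 effect minus the HSC effect was -0.93 ± 0.46 (0.33).
These 3 tests share the HSC libraries.

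In the LK compartment all 9 genes were called, 8 lower and Zfpm1 higher, where 22.4% of all genes were called, 8.72% of 13071 tested genes lower and 13.7% higher.
No gene had overlapping genotypes, and 19.5% of all genes lay lower in every Mettl3KO than in every WT library.
The members' median log2 fold change was -1.03, against 0.00 over all genes.
The values are UMIs summed over all LK cells of a library, as CPM of its UMIs, and the tests were edgeR's quasi-likelihood test over 3 against 3 libraries. The regulators Gata1 and Klf1 fell by similar amounts.
Gata1 was at 26.6, 35.4 and 40.5 CPM in Mettl3KO libraries, against 60.7, 73.9 and 61.6 CPM in WT libraries (log2 fold change -1.03 ± 0.16, adjusted p = 0.0036).
Klf1 was at 58.8, 83.9 and 86.1 CPM in Mettl3KO libraries, against 134, 164 and 128 CPM in WT libraries (-0.99 ± 0.16, 0.0041).
Zfpm1 was at 54.4, 34.9 and 45.9 CPM in Mettl3KO libraries, against 26.1, 29.2 and 24.4 CPM in WT libraries (0.66 ± 0.15, 0.016), and this call was lost without Mettl3KO replicate 3 (0.063) or WT replicate 1 (0.050).
The other 8 calls held without any 1 library.

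The receptor gene Epor was at 18.1, 26.3 and 24.6 CPM in Mettl3KO LK cells, against 34.1, 43.0 and 37.2 CPM in WT LK cells (log2 fold change -0.83 ± 0.15, adjusted p = 0.0070).
Car1 was at 184, 284 and 247 CPM in Mettl3KO cells, against 674, 987 and 1039 CPM in WT cells (-2.02 ± 0.22, 0.0011).
Car2 was at 798, 1048 and 1055 CPM in Mettl3KO cells, against 1480.3, 2029.8 and 1704 CPM in WT cells (-0.94 ± 0.16, 0.0044).
Of the anhydrases, Car1 thus had the larger fall, though that difference was not tested.
Slc4a1, the band 3 gene, was rare: 7, 17 and 32 UMIs in Mettl3KO libraries, against 130, 96 and 72 UMIs in WT libraries (-2.40 ± 0.39, 0.0042).
Alas2 was at 25, 18 and 45 UMIs in Mettl3KO libraries, against 98, 109 and 60 UMIs in WT libraries (-1.61 ± 0.25, 0.0037).
Ermap was at 21.4, 34.4 and 32.1 CPM in Mettl3KO cells, against 57.2, 66.7 and 56.1 CPM in WT cells (-1.13 ± 0.17, 0.0032).

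**Figure D3:**
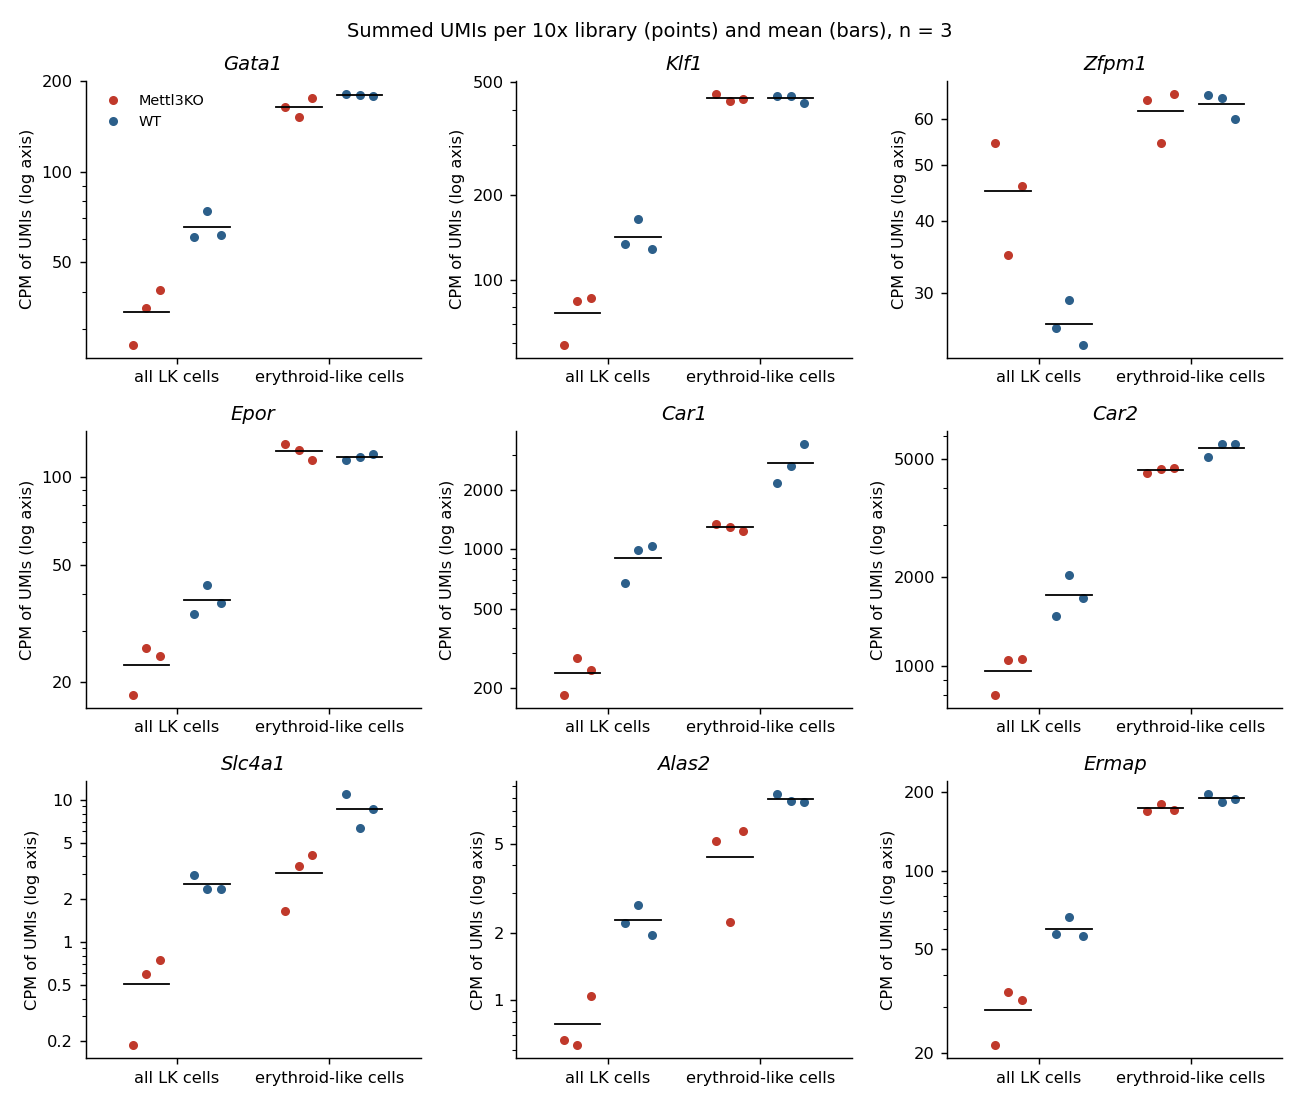
Summed UMIs of each member as CPM on a log axis, in all LK cells and in erythroid-like cells, with the 3 Mettl3KO libraries (red) left of the 3 WT libraries (blue) and a bar at the mean. Genotypes stand apart for every member over all LK cells. Within erythroid-like cells the Klf1, Epor and Zfpm1 points overlap, while those of the other members remain apart.

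Cells were clustered without the 9 members, so that their levels could be compared within classes.
Clusters 4 (leading genes Mt2, Sphk1, Bex4 and Prss50) and 15 (Hba-a1, Hbb-bs) met the erythroid markers and are called erythroid-like.
Erythroid-like cells numbered 187, 248 and 385 in Mettl3KO libraries, against 628, 642 and 572 in WT libraries.
They made up 4.41%, 8.42% and 7.91% of Mettl3KO LK cells, against 14.0%, 18.3% and 13.2% of WT LK cells.
The means were 6.91 ± 2.18% and 15.1 ± 2.74% (SD, n = 3), and no Mettl3KO library reached a WT one.
The edgeR test on cell numbers gave a log2 ratio of -1.13 ± 0.34 (adjusted p = 0.020 over 12 classes), and the exact two-sided permutation p was 0.1, the smallest that 3 against 3 libraries allow.
The call was lost without Mettl3KO replicate 3 (-1.24, 0.059) or WT replicate 2 (-0.97, 0.072).
Without the neutrophil-like cells, which WT replicate 3 held in excess, the log2 ratio was -1.26 (3.9e-04), a setting chosen after the data were seen. Shares of a library add up to a whole, and other classes moved too. Mean shares were higher in Mettl3KO for HSC/MPP-like (20.7% against 0.123%), B cell-like (23.8% against 4.73%) and megakaryocyte-like cells (9.67% against 3.86%). They were lower for basophil/mast-like (2.05% against 5.10%), granulocyte-like (10.3% against 19.3%) and unnamed clusters (10.3% against 23.0%). The HSC/MPP-like and unnamed shifts depend on the clustering. Their log2 ratios of 7.37 and -1.16 became 0.40 (edgeR adjusted p = 0.30) and 0.11 (0.74) at Leiden resolution 2. The other classes named here kept their direction. The part of the class shifts in the erythroid-like share and the LK levels was not tested. The erythroid-like cells held 11.4%, 17.3% and 17.7% of the UMIs of the Mettl3KO libraries, against 25.3%, 32.7% and 25.5% of the WT libraries.
The globin-rich cluster 15 made up 17.6%, 20.6% and 31.9% of the erythroid-like cells in Mettl3KO libraries, against 33.4%, 34.4% and 31.5% in WT libraries, and these overlapped (exact two-sided permutation p = 0.2).

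**Figure D4:**
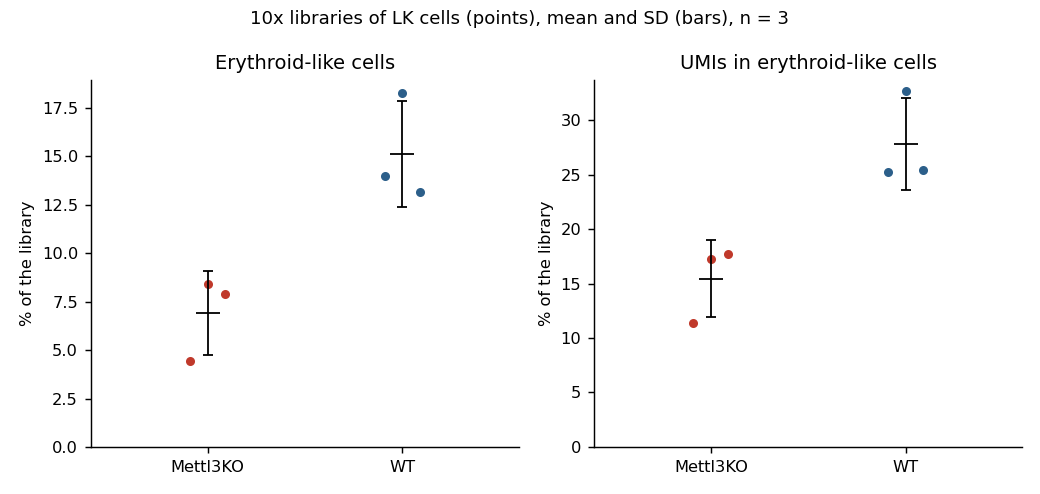
Share of LK cells in the erythroid-like class (left) and share of UMIs held by it (right), in percent per library, with Mettl3KO (red) left of WT (blue) and the mean with its SD. The Mettl3KO libraries lie at 4.41% to 8.42% of cells and the WT libraries at 13.2% to 18.3%.

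Within erythroid-like cells only Car1 and Slc4a1 were called, both lower, 2 of 9 members where 6.77% of 9812 tested genes were called and 2.59% lower.
Car1 was at 1334, 1298 and 1242 CPM in Mettl3KO libraries, against 2162, 2634 and 3409 CPM in WT libraries (log2 fold change -1.12 ± 0.12, adjusted p = 1.8e-04).
Every Mettl3KO library was below every WT library, as for 6 of the 9 members and 12.9% of all genes, and the call held in each alternative run.
The fall was present in both clusters: 1393, 1419 and 1341 CPM in Mettl3KO cells of cluster 4, against 2357, 2986 and 3820.2 CPM in WT cells, and 989, 716 and 986 CPM in Mettl3KO cells of cluster 15, against 1697, 1829 and 2286 CPM in WT cells.
Tested in each cluster alone, the log2 fold change was -1.18 in cluster 4 and -1.12 in cluster 15.
With each cell thinned to 4000 UMIs, Car1 was detected in 82.3%, 77.8% and 76.5% of Mettl3KO erythroid-like cells, against 92.8%, 96.1% and 98.0% of WT ones (unthinned 94.1%, 89.9% and 86.0% against 97.3%, 98.9% and 99.1%).
In monocyte-like cells, which should lack it, the thinned share was 1.23%, 2.27% and 2.51% in Mettl3KO and 4.72%, 7.18% and 8.30% in WT libraries, with median depths of 10987 to 13467.5 and 8612 to 12002 UMIs against 19214 to 21728 and 13132 to 20288 in erythroid-like cells. Thinning left out 1, 0 and 2 erythroid-like cells of the Mettl3KO libraries and 4, 1 and 8 of the WT libraries.

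Slc4a1 was at 7, 17 and 31 UMIs in Mettl3KO erythroid-like cells, against 123, 85 and 67 UMIs in WT ones, or 1.64, 3.45 and 4.08 CPM against 11.0, 6.38 and 8.58 CPM (log2 fold change -1.44 ± 0.29, adjusted p = 0.010).
Its call was lost without Mettl3KO replicate 1 (0.053).
In cluster 4 it reached at most 0.245 CPM in Mettl3KO and 0.350 CPM in WT cells, and in cluster 15 it was at 11.2, 18.8 and 14.8 CPM in Mettl3KO cells, against 37.0, 20.9 and 31.0 CPM in WT cells.
Alas2 (5.16, 2.23 and 5.67 CPM in Mettl3KO, against 8.34, 7.73 and 7.68 CPM in WT) and Car2 (4499.9, 4625 and 4662 CPM, against 5096, 5633 and 5652 CPM) also lay lower without overlap.
Their log2 fold changes of -0.85 ± 0.25 and -0.28 ± 0.09 did not pass (0.059 and 0.073), and both passed without Mettl3KO replicate 3 (0.033 and 0.037). The regulators, the receptor and Ermap were not called in erythroid-like cells. Mettl3 itself was not called there either, with a log2 fold change of -0.40 ± 0.11 (edgeR adjusted p = 0.051). In the other classes where it was tested, Mettl3 lay between -0.28 (B cell-like) and -1.38 (megakaryocyte-like). The part of the remaining Mettl3 RNA in the members' values was not tested.
Klf1 was at 456, 429 and 437 CPM in Mettl3KO erythroid-like cells, against 449, 446 and 422 CPM in WT ones, a log2 fold change of -0.03 with a 95% interval of -0.17 to 0.11.
Epor was at 129.7, 124 and 114 CPM in Mettl3KO cells, against 114, 117 and 120.1 CPM in WT cells (0.03, interval -0.11 to 0.17).
Zfpm1 was at 64.5, 54.5 and 66.3 CPM in Mettl3KO cells, against 65.9, 65.1 and 59.9 CPM in WT cells (-0.07, interval -0.27 to 0.12).
Gata1 was at 165, 152 and 177 CPM in Mettl3KO cells, against 182, 179.9 and 178 CPM in WT cells (-0.16, interval -0.32 to -0.00, adjusted p = 0.27), and Ermap gave -0.16 (interval -0.30 to -0.02, 0.19). These intervals are approximate and too narrow for so few libraries, and the unadjusted edgeR p of Gata1 was 0.070.
The difference between the LK and erythroid-like fold changes was not tested, since the same cells enter both.

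Markers of other cells moved with the genotype inside the erythroid-like class.
The 8 B cell markers, none at 0, summed to 142 to 216 CPM in Mettl3KO and 43.6 to 61.9 CPM in WT libraries, and the 8 granulocyte markers, none at 0, to 193 to 272 CPM in Mettl3KO and 298 to 407 CPM in WT libraries.
The 19 erythroid markers summed to 4866 to 6677 CPM in Mettl3KO and 7649 to 8071 CPM in WT libraries, all present except 1 gene in 1 Mettl3KO library.
Their part in the Car1 and Slc4a1 results was not tested.

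The UMIs of 8 members came mainly from erythroid-like cells in both genotypes, and those of Zfpm1 did not in Mettl3KO libraries. Erythroid-like cells held 13.5%, 27.0% and 25.6% of the Zfpm1 UMIs of Mettl3KO libraries, against 63.8%, 72.8% and 62.5% in WT libraries.
Megakaryocyte-like cells held 41.5%, 30.5% and 35.0% in Mettl3KO libraries, against 9.38%, 7.47% and 10.1% in WT libraries.
HSC/MPP-like cells held 33.1%, 17.5% and 23.3% in Mettl3KO libraries, against 0.174%, 0.0839% and 0% in WT libraries, where that class had 5 cells in each library and no test was made.
The megakaryocyte-like and HSC/MPP-like shares depend on the clustering.
At Leiden resolution 2 the HSC/MPP-like class had 521, 196 and 414 Mettl3KO cells, against 271, 272 and 303 WT cells, and held 10.7%, 4.01% and 7.63% of the Zfpm1 UMIs of Mettl3KO libraries, against 2.78%, 2.01% and 3.07% in WT libraries.
Zfpm1 was at 78.6, 34.6 and 73.7 CPM in those Mettl3KO cells, against 16.7 to 23.8 CPM in the WT cells (log2 fold change 1.75 ± 0.25, adjusted p = 1.4e-04).
For Klf1, by contrast, erythroid-like cells held 88.3% to 90.0% in Mettl3KO and 84.0% to 88.9% in WT libraries.

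In megakaryocyte-like cells, Zfpm1 was at 211, 180.5 and 193 CPM in Mettl3KO libraries, against 93.2, 81.4 and 73.7 CPM in WT libraries (log2 fold change 1.28 ± 0.12, adjusted p = 1.1e-07).
Car2 also rose there, at 829.7, 870.4 and 858 CPM in Mettl3KO, against 519.5, 605 and 736 CPM in WT libraries (0.51 ± 0.10, 9.8e-04).
Gata1 fell to 33.3, 41.0 and 49.0 CPM in Mettl3KO, against 99.2, 111 and 101 CPM in WT libraries (-1.29 ± 0.15, 2.5e-06).
Car1 (-2.63 ± 0.38), Epor (-0.79 ± 0.21) and Klf1 (-0.76 ± 0.26, 0.032) fell too, so 6 of 6 tested members were called in a class where 32.5% of all genes were.
The Klf1 call was lost with DESeq2 (0.10) and without Mettl3KO replicate 1 (0.18), WT replicate 1 (0.11) or WT replicate 2 (0.090). Different clusters filled this class in the genotypes.
Cluster 8 (leading genes Gp5, F2r, Gchfr and Gng11) held 485, 205 and 463 Mettl3KO cells, against 2, 1 and 1 WT cells, and cluster 18 (Pf4, Gp1bb, Sdpr) held 15, 12 and 16 Mettl3KO cells, against 154, 139 and 178 WT cells. Car1 was low in both, at 4.65, 5.07 and 6.12 CPM in Mettl3KO cluster 8 and 22.6, 24.8 and 78.1 CPM in WT cluster 18. In granulocyte-like cells it was at 3.01 to 6.87 CPM in Mettl3KO and 13.5 to 22.5 CPM in WT libraries.
The megakaryocyte markers of the class summed to 1538 to 1830.4 CPM in Mettl3KO and 7211 to 10716 CPM in WT libraries.
Within cluster 18 alone Zfpm1 was at 70.7, 47.2 and 50.4 CPM in the few Mettl3KO cells, against 91.3, 81.7 and 73.2 CPM in WT cells, so it was not higher there.
Klf1 lay the other way from the whole class in cluster 18, at 47.1, 66.0 and 36.0 CPM in Mettl3KO cells on 6, 7 and 5 UMIs, against 21.7, 20.2 and 17.6 CPM in WT cells.
Gata1 (75.4 to 115 CPM in Mettl3KO, with the highest WT library at 111 CPM) overlapped there, and so did Car1, Car2 and Epor. The megakaryocyte-like class itself depends on the clustering, and at Leiden resolution 0.5 no cluster was given that name. Gp5 and Gng11 then led an HSC/MPP-like cluster of 3679 cells, and Pf4 and Gp1bb a basophil/mast-like cluster of 2037 cells. At resolution 2 the class was present, with Zfpm1 at 210.0, 153 and 191 CPM in Mettl3KO, against 87.6, 81.4 and 73.2 CPM in WT libraries.

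Basophil/mast-like cells, which use GATA factors as well, held Car1 at 1059, 1066 and 459 CPM in Mettl3KO libraries, against 903, 1089 and 1142 CPM in WT libraries, and Gata1 at 116, 106 and 92.2 CPM, against 104, 119 and 122 CPM.
Of the 7 members tested there edgeR called 0, with the Car1 log2 fold change at -0.29 and an interval of -0.65 to 0.07, where 0.422% of all genes were called. No member had an unadjusted p under 0.05, and DESeq2 called 0.
In granulocyte-like cells Car1 (-1.86 ± 0.26, adjusted p = 0.0077) and Car2 (-0.84 ± 0.13, 0.024) fell, 2 of 5 tested where 0.277% of genes were called, and in monocyte-like cells Car1 (-2.08 ± 0.18, 4.0e-05), 1 of 4 where 1.13% were.
The levels were low, at 3.01 to 6.87 CPM of Car1 in Mettl3KO and 13.5 to 22.5 CPM in WT granulocyte-like cells.
Car2 in granulocyte-like cells stood at 2.42% to 3.64% of the whole LK level of its library in Mettl3KO and 2.42% to 3.60% in WT libraries, about the same share in both.
Across monocyte-, granulocyte-, neutrophil- and B cell-like cells, Car1 stood at 1.22% to 4.25% of the whole LK level of its library in Mettl3KO and 0.906% to 3.43% in WT libraries.
In B cell-like cells (0.340% of genes called) edgeR called 0 of 3 members, with 2 at an unadjusted p under 0.05 (Car1 and Car2) and 1 by DESeq2, and in dendritic-like cells (0.730%) 0 of 2, with 1 at an unadjusted p under 0.05 (Car2) and 0 by DESeq2.

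**Figure D5:**
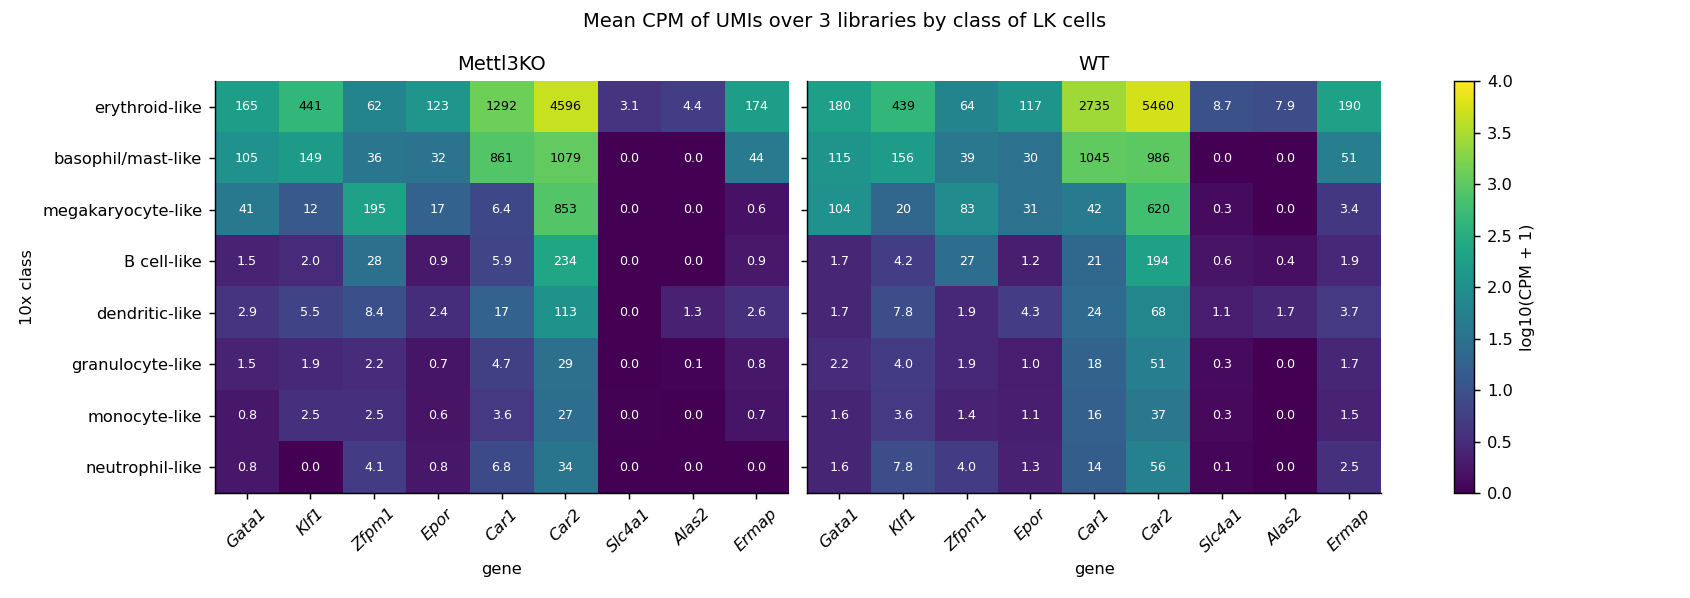
Mean CPM of UMIs over 3 libraries for each member (columns) in 8 named classes of LK cells (rows), Mettl3KO in the left panel and WT in the right, with the colour giving log10(CPM + 1) and each cell its mean CPM. All members except Zfpm1 stand highest in erythroid-like cells in both genotypes, while Zfpm1 stands highest in megakaryocyte-like cells in both.

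Other genes of red cell biology were counted from fixed lists, beside 8.72% of all genes lower and 13.7% higher in LK cells.
Over all LK cells, 10 of 11 tested genes of heme synthesis and export fell and none rose (median log2 fold change -0.60), among them the mitochondrial exporter Abcb10 (-0.88 ± 0.15) and the pathway enzymes Cpox (-0.81 ± 0.15) and Fech (-0.73 ± 0.10).
Of 18 genes of the red cell membrane and skeleton, 16 fell and 1, the glucose transporter gene Slc2a1, rose (median -1.05), with Epb42 at -1.65 ± 0.17, Rhd at -1.41 ± 0.24 and Kel at -1.38 ± 0.24.
Of 4 tested globin genes, Hba-a1 (-1.53 ± 0.32) and Hbb-bt (-0.78 ± 0.24) fell, and of 9 genes of iron uptake 3 fell, with the iron exporter Slc40a1 at -1.10 ± 0.16.
Of 16 transcription partners, 4 fell and 3 rose, with Sox6 at -0.99 ± 0.15, Gfi1b at -0.74 ± 0.16, Nfe2 at 0.86 ± 0.13 and Fli1 at 0.60 ± 0.14.
The genes of Epo receptor signalling went both ways, 4 of 11 rising and 2 falling, and those that rose were the cytokine-induced feedback genes Socs3 (3.26 ± 0.19) and Cish (1.94 ± 0.18), the kinase gene Pim1 (1.27 ± 0.08) and the survival gene Bcl2l1 (1.22 ± 0.10).
Of 8 other carbonic anhydrase genes, Car12 (0.97 ± 0.19) and Car13 (0.68 ± 0.20) rose and none fell.

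Within erythroid-like cells fewer of these genes were called, although the difference between the settings was not tested, and 6.77% of all genes were called there, 2.59% lower.
In the heme list 1 of 11 fell (Abcb10, -0.48 ± 0.11), in the membrane list 5 of 17, with Epb42 at -0.80 ± 0.14, and 3 of 4 globins fell, with Hba-a1 at -0.83 ± 0.16, Hbb-bt at -0.78 ± 0.20 and Hba-a2 at -0.77 ± 0.19.
The globin values of near-identical copies such as Hba-a1 and Hba-a2 are uncertain.
Tfrc, the transferrin receptor gene, rose (0.66 ± 0.11), as 1 of 9 iron genes, and Slc25a37, the mitochondrial iron importer, fell (-0.50 ± 0.13).
Sox6 (-0.70 ± 0.16) and Myb (-0.33 ± 0.09) fell among 16 partners, Kit (-0.64 ± 0.10) fell and Pim1 (0.55 ± 0.11) rose among 9 signalling genes, and Car13 rose (1.25 ± 0.27).

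In the bulk populations the lists held few calls, where 6.15%, 8.63%, 2.47% and 3.13% of all genes were called in HSC, MPP1, MPP2 and MPP4.
In that order, 1, 1, 1 and 0 of 11 heme genes, 3, 1, 1 and 1 of 16 membrane genes and 1, 2, 0 and 1 of 9 iron genes were called.
Of 16 transcription partners 2, 6, 2 and 2 were called, of 11 signalling genes 2, 1, 1 and 2, and of 10 other carbonic anhydrase genes 1, 3, 1 and 0.
Bcl2l1 rose in all 4 populations, by 0.84 in HSC, 0.67 in MPP1, 0.98 in MPP2 and 1.29 in MPP4 (SE 0.20 each).
The glycophorin C gene Gypc fell in HSC (-1.44 ± 0.17), MPP1 (-1.29 ± 0.17) and MPP2 (-0.86 ± 0.17), and Ppox, an enzyme gene of heme synthesis, in the same populations (-0.87 ± 0.18, -0.77 ± 0.18 and -0.73 ± 0.18).
In HSC Rhd (-3.41 ± 0.78) fell too.
Tfrc rose in MPP1 (1.01 ± 0.28) and MPP4 (1.59 ± 0.28).
Nfe2 rose in HSC (0.82 ± 0.20) and MPP2 (1.07 ± 0.20), Tal1 in MPP2 (1.05 ± 0.25), and Lmo2 fell in HSC (-0.59 ± 0.17) and MPP4 (-1.04 ± 0.17).
Of 6 globin genes tested, edgeR called 0 in each population, with 2, 2, 2 and 0 at an unadjusted p under 0.05 in HSC, MPP1, MPP2 and MPP4, and DESeq2 called 2 in MPP2 and 0 in the others.

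The genes most like each member were listed by Pearson's r of log2 CPM, as a description.
Over the 24 bulk libraries, which share genotype and population structure, Car1 was most like Tspo2 (r = 0.960), Slc25a21 (0.872) and Cldn13 (0.840), and Klf1 was most like Tspo2 (0.863), Slc38a5 (0.841) and Rhd (0.840).
Genes most like Car2 included Selenbp1 (0.964) and Aig1 (0.950), and Zfpm1 was most like Tmc4 (0.913), Fam212a (0.906) and Serpina3g (0.894).
Among the members, Klf1 and Ermap (0.887), Car1 and Ermap (0.887) and Klf1 and Car1 (0.860) moved most alike, while Gata1 and Klf1 gave 0.385 and Zfpm1 and Car1 gave -0.429.
Over 42 points in the 10x data, the sums of 7 classes in 6 libraries, Tspo2 was again nearest to Car1 (0.977), and Atp1b2 was nearest to Ermap (0.980).
Gata1 was nearest to Sdsl and Mfsd2b (0.976 each), Klf1 to Ces2g (0.978), Epor to Sept8 (0.966), Car2 to Blvrb (0.957) and Zfpm1 to Tmem9 (0.960).
The points of a class or a library share cells, depth and cell mixture.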

How the data were processed

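The deposited bulk table is named as FPKM, but it held whole-number counts of reads per gene with totals that differ between libraries, so it was taken as raw counts from the authors. The planned test for normalized values was replaced by a count test. Per the labels' protocols, bulk libraries were SMARTer-amplified polyA RNA, read in 50 bp pairs, and replicates came from different mice. The deposited 10x table held UMI counts per gene and cell. The submitters' processing notes list Cell Ranger 2.2, TopHat and Bowtie, as well as mm10 and GRCh37, without saying what each served for. How reads were counted, and whether by strand, is not given in the sources used here.

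The bulk test was edgeR 4.0.16 in R 4.3.3 (filterByExpr, TMM, glmQLFit and glmQLFTest), with 1 mean for each of 8 groups over 24 libraries and 16 residual degrees of freedom, and 15545 genes tested. A gene is called changed at a Benjamini-Hochberg adjusted p under 0.05 over all tested genes of a comparison. SE is the log2 fold change over the square root of F, and 95% intervals are 1.96 SE to each side. This normal approximation makes the intervals too narrow for so few libraries, so an interval that leaves out 0 is not a call. CPM are counts over the TMM-scaled total, and levels per kb divide by merged exon length. The test was checked on simulated counts. DESeq2 1.42.0, other scalings and filters, a replicate block and leaving out each library were the alternatives.

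In the 10x data (Python 3.11.15, scanpy 1.11.5, leidenalg 0.10.2), 297 cells whose mitochondrial share exceeded 10% were left out. Cells were clustered (2000 variable genes, 30 components, 20 neighbours, Leiden resolution 1) without the 9 members, Mettl3, Xist, Tsix and mitochondrial genes, and clusters were named from 14 marker lists that hold no member. Scrublet marked 248 cells (1.02%) as doublets, which were kept. For each library UMIs were added up over the LK cells, and over each class that reached 50 cells in all 6 libraries, and these sums went through the same edgeR steps. CPM of these sums are over all UMIs of the cells summed. Floors are 3 counts and cover counting error only, and bulk reads carry no molecular identifiers, so they are not independent molecules.

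The genes named are the 9 members, the 4 called genes of largest absolute log2 fold change per pathway list and comparison (1 further called gene, Slc2a1, was named after its value was seen), the genes nearest to each member by correlation, and Mettl3. Some genes that this rule selects are not reported here. The members and lists were chosen with earlier results of these data known.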

Additional observations from a re-analysis of the deposited data

Results flagged for a closer look

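Car2 separated the genotypes in opposite directions in different classes of LK cells. In erythroid-like cells every Mettl3KO library was below every WT library, in megakaryocyte-like cells every Mettl3KO library was above every WT library, and in granulocyte-like cells every one was below again. The log2 fold change in erythroid-like cells minus that in megakaryocyte-like cells was -0.79, and that in granulocyte-like cells minus that in megakaryocyte-like cells was -1.35. These differences were not tested. The change in erythroid-like cells did not pass (adjusted p = 0.073). Car2 in granulocyte-like cells was at 2.42% to 3.64% of the whole LK level of its library in Mettl3KO and 2.42% to 3.60% in WT libraries, beside 2.37% to 3.42% and 1.88% to 2.56% in monocyte-like cells. In megakaryocyte-like cells most Mettl3KO cells came from cluster 8 and most WT cells from cluster 18. Within cluster 18, Car2 was at 534, 499.8 and 713 CPM in Mettl3KO cells, against 519, 599 and 728 CPM in WT cells, which overlapped.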

How the results depend on the processing

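No called result changed direction under the alternatives run, 2187 values kept their side of the threshold or moved little, 202 moved further, 38 lost their call and 31 gained one. The number of members called moved by over 1.5 times as follows. In HSC (3 called), DESeq2 called 5 and leaving out 1 library gave 1 to 3. In MPP1 (3), a fit of only the 6 MPP1 libraries called 0 (adjusted p = 0.21 for Car1, 0.34 for Gata1 and 0.13 for Car2) and leaving out 1 library gave 1 to 3. In MPP2 (1), DESeq2 called 3, only the libraries compared 4 and the replicate block 2. In MPP4 (2), leaving out any 1 library gave 1. For WT MPP2 against WT HSC (1), DESeq2 called 2, only the libraries compared 4, the block 2, and leaving out 1 library gave 0 to 1. For WT MPP4 against WT HSC (1) these settings gave 2, 3 and 2. For WT MPP2 against WT MPP1 (0) they gave 1, 1 and 1, and for WT MPP2 against WT MPP4 (0) DESeq2 called 1. In erythroid-like cells (2), no low-count filter gave 4, cluster 4 alone 1 and leaving out 1 library 1 to 4. Over all classes (11 calls), no filter gave 18 and Leiden resolution 0.5 gave 6. The share of erythroid-like cells (log2 ratio -1.13) stayed between -1.30 and -0.89 without 1 library, and lost its call at -1.24 and -0.97. Except where fewer libraries or genes enter the fit, the cause was not tested.

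The replicate numbers did not pair the genotypes: same-numbered libraries correlated at -0.142 to 0.0541 in bulk and -0.324 to -0.0615 in 10x data. Between WT populations, same-numbered libraries correlated at 0.0520 to 0.253 and others at -0.193 to 0.0649, and in 35 of 36 cases a library was nearest to its own number. This is a hint of shared numbering from the data, not the design, and no population pair had all its correlations over 0.1. Mettl3KO populations were not compared with each other in this way. The main bulk tests treat all libraries as independent. With the number as a block, Zfpm1 passed in HSC (1.13, 0.011), Car2 in MPP2 (-0.74, 0.030), WT MPP2 against WT HSC (-0.71, 0.0079) and WT MPP2 against WT MPP1 (-0.77, 0.0081), Zfpm1 in WT MPP4 against WT HSC (-0.86, 0.036), and Klf1 in megakaryocyte-like cells did not (-0.72, 0.057). The setting without a mitochondrial filter was run for all LK cells only, since the removed cells have no cluster. Low depth limits Slc4a1 and Alas2 most, with 7 to 45 UMIs per Mettl3KO LK library.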
